A study of Mus musculus with 16 samples.

Results

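Genes named Zfp followed only by a number encode zinc finger proteins, and they are described here in adherent peritoneal macrophages of male BALB/cByJ-Lpin1fld/J mice. The members were chosen by name and by detection: a probe had to carry a gene name of Zfp plus digits, other than Zfp36, and had to pass the scanner's background test on every array of 1 or more of the 4 groups. Of 461 probes for 239 such names, 348 probes for 208 genes met both conditions, out of 41174 non-control probes on the array and 25535 probes that met the detection condition. Cells of heterozygous mice, the controls, and cells of mice labelled fld, which carry mutant lipin-1 (Lpin1), received either no stimulus or 100 ng/ml of LPS for 5 h, in medium without serum. Each of the 4 groups had 4 arrays, and the labels state no age for the mice. The study used 4 mice of each genotype, and no label ties an untreated array to an LPS array of the same mouse, so p-values measure the spread between these arrays, which may be technical in part. Values are log2 processed signals minus the array's 75th percentile, so 0 is a bright probe and negative values are dimmer ones, and probes are not compared with each other by level.

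Of the 113 probes left out, 71 passed on no array of their best group, 26 on 1, 9 on 2 and 7 on 3, and 31 gene names had no probe left. The 14 members that passed in a single group had best-group means of -4.73 to -3.50 (median -4.26), and the 7 probes that missed by 1 array had -5.055 to -3.93 (median -4.72). All 4 arrays passed for 337 member probes in untreated controls, 320 in LPS-treated controls, 338 in untreated fld cells and 289 in LPS-treated fld cells. No member probe was saturated, and 54 values in 50 probes were missing because of an outlier flag.

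Zinc finger proteins of the C2H2 kind bind DNA or RNA through repeated small domains that each hold a zinc ion. Many numbered Zfp genes also encode a KRAB domain, which recruits TRIM28 and, through it, the histone methyltransferase SETDB1 and heterochromatin proteins to silence genes and retroelements. Others lack that domain and act as activators, as ubiquitin ligases or in RNA handling, so the name does not mark a shared function. LPS is sensed by TLR4 and starts a broad programme of transcription in macrophages. The old array names also cover genes now called otherwise: 33 of the 208 had another current symbol, among them 5 Zbtb, 11 Zscan or Zkscan and 3 Rnf genes.

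The arrays labelled fld were not uniform. Of 4 Lpin1 probes, 3 were near or below background on the fld arrays of replicates 1 to 3, and the arrays labelled fld replicate 4 carried signal. The brightest of those 3 read -5.34, -6.22, -5.66 and -1.36 on the untreated fld arrays and -5.00, -5.73, -4.58 and -2.61 on the LPS fld arrays, against -2.90 to -1.99 in untreated controls. Both arrays go against their label. Counts are also given without them, as are named calls that were lost without them. The fourth Lpin1 probe was above background on all 16 arrays. Each group lay on a slide and a scan of its own, and an effect of the slide cannot be told apart from that of the group. The 75th percentile of signal was 189 to 411 in LPS-treated fld arrays and 335 to 627 in LPS-treated control arrays. Macrophage markers were present on every array (5 of 5 measured), with array means of 3.91 to 4.13 and 2.82 to 3.20 in untreated and LPS-treated controls and 3.74 to 4.19 and 1.36 to 3.21 in fld cells. All 6 B cell markers were also above background, at 1.96 to 2.60, 1.89 to 1.97, 1.86 to 2.37 and 1.55 to 2.04 in the same order, as were 5 of 5 mast cell markers, at -0.19 to 2.02, 1.85 to 2.71, 0.77 to 2.39 and 1.16 to 2.56. Of the neutrophil list 3 of 5 markers were detected, and Ngp was on at most 1 array of any group. T cell markers (4 of 5 detected) had array means of -2.75 to -2.145, -2.70 to -2.29, -2.88 to -2.08 and -2.85 to -1.02 in the same order. Mesothelial or fibroblast markers (5 of 8 detected) had -4.565 to -3.51, -4.54 to -3.69, -3.78 to -3.20 and -3.55 to -2.58. The part of these cells in the results was not tested, and fewer cells of a type cannot be told apart from less RNA per cell in such samples.

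Promoter sequences are shown for 8 members to give the DNA context of the response. Zfp281 and Zfp710 were taken because the former rose and the latter fell in both genotypes, and the rest because they were called with LPS and their first listed promoter held a searched motif. They run from 250 bases before to 50 bases after the start of the gene, 5′ to 3′ on the gene's strand, and come from RefSeq on build GRCm38.p6. Capitals mark a match to GGNNTTTCC (NF-kB), TGACGTCA (the cAMP response element, CRE) or TGANTCA (AP-1) on either strand.
Zfp281: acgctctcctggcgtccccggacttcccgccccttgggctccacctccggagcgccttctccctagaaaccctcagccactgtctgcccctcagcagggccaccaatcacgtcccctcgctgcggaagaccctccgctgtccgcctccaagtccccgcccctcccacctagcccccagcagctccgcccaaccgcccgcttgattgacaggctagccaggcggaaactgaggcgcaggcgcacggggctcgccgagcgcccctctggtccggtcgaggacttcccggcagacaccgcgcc
Zfp710: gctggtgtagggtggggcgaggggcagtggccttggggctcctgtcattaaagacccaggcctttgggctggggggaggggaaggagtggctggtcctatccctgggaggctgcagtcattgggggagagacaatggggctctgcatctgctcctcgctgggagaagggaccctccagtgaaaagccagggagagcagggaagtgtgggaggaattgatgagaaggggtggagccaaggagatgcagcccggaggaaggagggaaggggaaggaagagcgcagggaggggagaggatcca
Zfp523: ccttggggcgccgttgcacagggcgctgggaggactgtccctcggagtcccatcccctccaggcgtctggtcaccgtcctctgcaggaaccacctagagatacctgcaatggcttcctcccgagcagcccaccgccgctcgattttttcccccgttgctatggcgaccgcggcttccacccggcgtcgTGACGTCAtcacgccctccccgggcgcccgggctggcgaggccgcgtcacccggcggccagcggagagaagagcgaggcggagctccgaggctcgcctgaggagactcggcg
Zfp598: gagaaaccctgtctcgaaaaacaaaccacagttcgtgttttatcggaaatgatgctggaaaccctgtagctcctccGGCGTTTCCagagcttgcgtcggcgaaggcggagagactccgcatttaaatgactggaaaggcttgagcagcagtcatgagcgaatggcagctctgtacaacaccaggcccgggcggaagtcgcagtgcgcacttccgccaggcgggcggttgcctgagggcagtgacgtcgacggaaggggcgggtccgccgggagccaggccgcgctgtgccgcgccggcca
Zfp617: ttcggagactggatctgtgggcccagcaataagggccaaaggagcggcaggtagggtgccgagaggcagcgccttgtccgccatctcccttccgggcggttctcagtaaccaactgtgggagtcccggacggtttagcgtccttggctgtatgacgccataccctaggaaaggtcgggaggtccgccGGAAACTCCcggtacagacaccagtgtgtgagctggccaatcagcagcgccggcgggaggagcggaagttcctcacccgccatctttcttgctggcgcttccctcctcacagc
Zfp386: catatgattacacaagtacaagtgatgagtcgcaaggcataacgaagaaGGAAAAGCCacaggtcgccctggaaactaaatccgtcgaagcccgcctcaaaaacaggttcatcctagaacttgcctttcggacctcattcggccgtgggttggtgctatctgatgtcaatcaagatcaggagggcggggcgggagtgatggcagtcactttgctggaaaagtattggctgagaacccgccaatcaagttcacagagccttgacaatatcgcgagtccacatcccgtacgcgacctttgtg
Zfp455: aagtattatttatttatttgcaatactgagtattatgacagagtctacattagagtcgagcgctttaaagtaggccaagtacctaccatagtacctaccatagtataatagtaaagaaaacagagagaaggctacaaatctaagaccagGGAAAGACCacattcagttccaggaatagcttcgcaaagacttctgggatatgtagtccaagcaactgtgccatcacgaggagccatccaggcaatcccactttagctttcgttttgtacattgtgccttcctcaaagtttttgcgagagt
Zfp329: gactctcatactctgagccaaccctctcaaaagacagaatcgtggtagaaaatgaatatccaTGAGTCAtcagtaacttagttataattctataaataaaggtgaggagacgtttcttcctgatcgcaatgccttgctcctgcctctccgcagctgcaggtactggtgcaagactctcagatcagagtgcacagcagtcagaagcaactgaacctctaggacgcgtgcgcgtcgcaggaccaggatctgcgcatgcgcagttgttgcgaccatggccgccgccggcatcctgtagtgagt
The promoters of Zfp281 (chr1:136624651-136624950, + strand) and Zfp710 (chr7:80024564-80024863, + strand) held no match to these motifs, and 70.7% and 62.7% of their bases were G or C. The CRE match of Zfp523 (chr17:28176946-28177245, + strand) began 62 bases before the start, and the NF-kB matches of Zfp598 (chr17:24669437-24669736, + strand), Zfp617 (chr8:71922575-71922874, + strand), Zfp386 (chr12:116047474-116047773, + strand) and Zfp455 (chr13:67194256-67194555, + strand) began 174, 63, 201 and 101 bases before it. The AP-1 match of Zfp329 (chr7:12818811-12819110, - strand) began 188 bases before the start. Of the 208 genes, 166 had a listed promoter. GGNNTTTCC stood in 11 of these (6.63%), TGANTCA in 5 (3.01%) and TGACGTCA in 7 (4.22%), against 5.72%, 7.93% and 1.88% of the first listed promoters of 27025 genes. Among 22 members higher with LPS in controls, 2, 0 and 1 held the motifs, and among 27 lower, 1, 1 and 0. A match describes letters in a window and not a bound site.

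In control cells the members changed in both directions with LPS. Among the 284 member probes above background on all 16 arrays, 47 were higher and 41 lower, and 196 were not called. The shares of all probes so detected were 15.7% higher and 14.7% lower, so the members' 16.5% and 14.4% lay near the background. Over all 348 member probes 49 were higher and 59 lower, against 14.9% and 15.1% of the 25535 probes tested, and the median differences were -0.02 and 0.02. The remaining 64 probes had 2 higher (3.125%) and 18 lower (28.1%). Shares of all probes below background on some array were not taken, so this split has no background beside it. Such dim probes entered through the group where they were bright, and the part of this in the split was not tested. Counted once per gene by its brightest probe, 33 of 208 genes were higher and 35 lower, against 14.5% and 15% of 17598 gene names. Calls are limma's Benjamini-Hochberg adjusted p under 0.05 over all probes tested. With normexp background correction 40 probes (11.5%) were higher and 25 (7.18%) lower, against 12.4% and 10.8% of all probes.

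In cells labelled fld, 48 of the 284 probes were higher and 47 lower, where 21.2% and 17.4% of all such probes were. Over 348 probes the counts were 52 and 65, against 21.1% and 17.4%, with medians of 0.00 for members and 0.06 for all probes tested. By gene the counts were 35 and 45 of 208, against 21.5% and 17.9%. The split moved with scaling, for members and for all probes. Under normexp 108 were higher and 28 lower (33.9% and 13.8% of all probes), under quantile normalization 52 and 89 (18.5% and 21.3%), and in the deposited table of values there were 16 higher and 101 lower (10.4% and 26.0%). Those settings moved the median of all probes to 0.19, -0.02 and -0.185, and the members' median to 0.21, -0.09 and -0.24. Without the untreated fld array of replicate 2 the lower count was 43. Without both fld arrays of replicate 4, 47 probes were higher and 46 lower, against 15.955% and 13.899% of all probes.

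**Figure D1:**
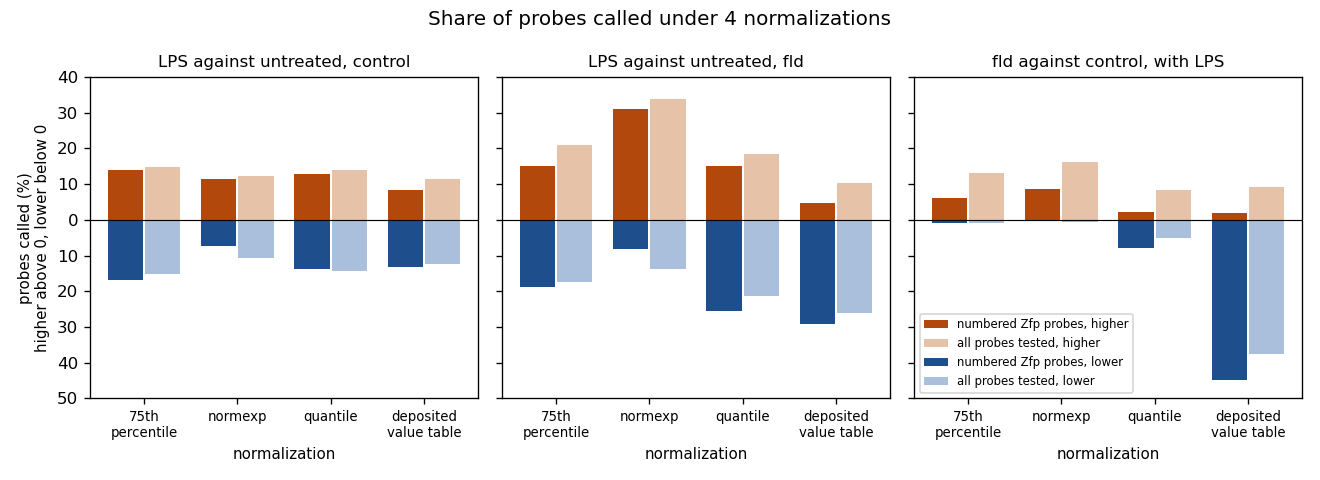
Percent of probes called higher (above 0) and lower (below 0) for 348 numbered Zfp probes and for all 25535 probes tested, in 3 comparisons under 4 normalizations. The fld comparisons change their split of higher and lower calls with the normalization, for members and for all probes alike, with 108 member probes higher under normexp and 16 in the deposited value table for LPS in fld cells.

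The 2 LPS comparisons use different arrays. Of 68 genes called in controls and 80 called in fld cells, 52 were called in both, which is 76.5% of the first list and 65.0% of the second. They comprised 24 higher and 28 lower genes, with none in opposite directions. Over 17598 gene names the same shares were 76.2% and 57.2%. The difference between the LPS responses was called for 0 of 348 member probes by limma, with 19 (5.46%) at an unadjusted p under 0.05, and for 0 of the 25535 probes tested (0%), with 9.19% at an unadjusted p under 0.05.

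Other zinc finger families were counted in the same way. All probes tested had 14.9% higher and 15.1% lower with LPS in controls, and 21.1% and 17.4% in fld cells. Of 38 probes for Zbtb genes, which pair zinc fingers with a BTB domain, 3 (7.89%) were higher and 6 (15.8%) lower in controls. In fld cells 9 (23.7%) and 8 (21.1%) were. Of 25 probes for Zc3h genes, whose CCCH fingers bind RNA, 7 (28%) were higher and 2 (8%) lower in controls, and 6 (24%) and 0 in fld cells. The 3 probes named Zscan or Zkscan had no call. These counts go by the array's names, and 11 genes now called Zscan or Zkscan and 5 now called Zbtb are counted among the members. Some of those were called with LPS, as given below. The differences between families were not tested.

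**Figure D2:**
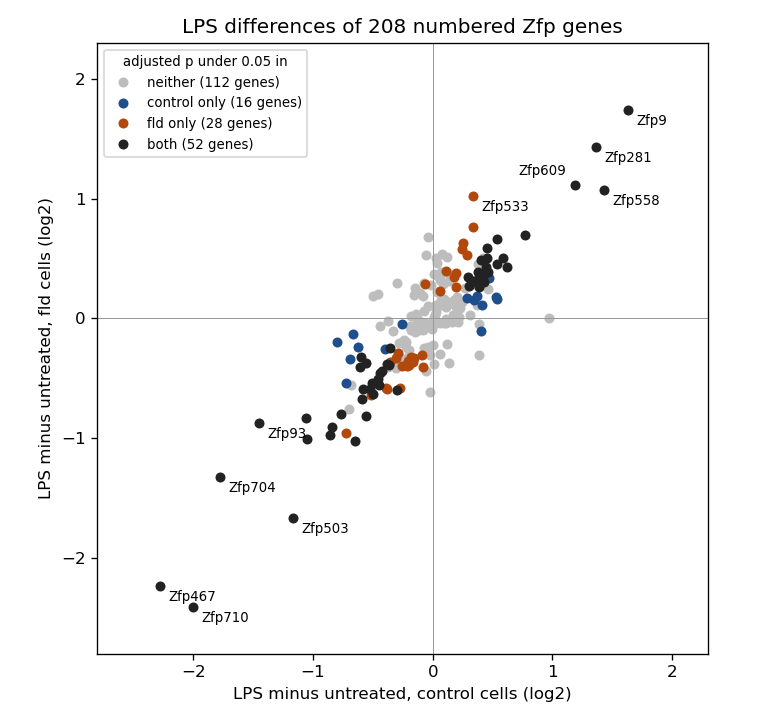
LPS minus untreated difference (log2) in control cells (horizontal axis) and in cells labelled fld (vertical axis), 1 point for each of 208 genes by its brightest member probe. Points are coloured by the comparison in which limma called them: 52 genes were called in both, 16 in controls alone and 28 in fld cells alone.

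Zfp281, Zfp609 and Zfp207 rose with LPS in both genotypes, as did Zfp558, described further below. Zfp281 encodes a factor that binds GC-rich promoters and is known for its role in pluripotent stem cells. Its probe, at chromosome 1, 136516106 to 136516165 in scanner coordinates of unstated build, read 1.5, 1.42, 1.14 and 1.52 on untreated control arrays and 2.49, 2.79, 2.92 and 2.85 with LPS. In fld cells it read 1.51, 1.59, 1.63 and 1.68 untreated and 3.08, 3.03, 2.95 and 3.06 with LPS. All LPS arrays lay above all untreated arrays, and the rise was 2.57-fold in controls (log2 difference 1.36, SE 0.11, limma adjusted p = 5.99e-07) and 2.70-fold in fld cells (1.43, SE 0.11, adjusted p = 3.73e-07). It was called under every alternative tried. The promoter printed above is that of this gene.

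Zfp609 and Zfp608 are paralogs, and they moved in opposite directions. Zfp609 read -1.56, -1.36, -1.34 and -0.98 on untreated control arrays and -0.07, -0.13, -0.03 and -0.25 with LPS, a rise of 1.19 (SE 0.16, limma adjusted p = 5.88e-05). In fld cells it went from -1.30, -1.37, -1.50 and -1.55 to 0.05, -0.37, -0.14 and -0.78, a rise of 1.12 (adjusted p = 9.88e-05). Groups did not overlap in either genotype. Zfp608 read -1.85, -1.89, -1.67 and -1.62 untreated and -2.79, -2.81, -2.79 and -2.88 with LPS in controls, and fell by 1.06 (SE 0.16, adjusted p = 0.000137). In fld cells its arrays went from -1.70, -2.28, -2.13 and -2.02 to -2.64, -3.06, -2.52 and -3.24, and it fell by 0.84 (adjusted p = 0.000854), but under normexp the fld difference was -0.083 (adjusted p = 0.577). A second Zfp609 probe, dimmer, differed by 0.56 and 0.20 and was not called. Of the 2 other Zfp608 probes, 1 was called lower in controls and the other in fld cells.

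Zfp207 encodes BuGZ, a spindle protein that stabilises Bub3. Its probe read 3.04, 3.17, 3.09 and 3.11 on untreated control arrays and 3.83, 3.87, 3.97 and 3.82 with LPS. In fld cells it read 3.19, 3.16, 3.21 and 3.26, then 4.15, 3.88, 3.88 and 3.71. The groups did not overlap, and the differences were 0.77 (SE 0.09, limma adjusted p = 2.58e-05) and 0.70 (adjusted p = 5.76e-05). Its second member probe rose too, by 0.81 and 0.58.

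Zfp558 was higher with LPS by both of its probes. Its brighter probe (chromosome 9, 18308321 to 18309432) read -4.14, -4.79, -4.57 and -4.58 on untreated control arrays and -2.87, -3.12, -3.46 and -2.91 with LPS, a rise of 1.43 (SE 0.18, limma adjusted p = 3.97e-05). In fld cells it went from -3.37, -3.61, -3.50 and -3.80 to -2.61, -2.62, -2.75 and -2.02, a rise of 1.07 (adjusted p = 0.000418). The second probe (chromosome 9, 18308938 to 18308997) passed the background test on no untreated array. With LPS it read -3.45, -3.37, -3.68 and -3.49 in controls, and it was at least 3.29-fold higher there and at least 2.35-fold higher in fld cells. An at least fold sets the bright group's mean against the lowest signal that counted as well above background. Zfp9 likewise passed it on no untreated array, and with LPS it read -3.99, -4.33, -3.73 and -3.76 in controls, at least 2.40-fold higher, and at least 1.62-fold higher in fld cells, where 2 of 4 LPS arrays were above background. Both probes became members only through LPS-treated groups where they were bright, so their higher values with LPS were fixed by the choice and no p-value is given.

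**Figure D3:**
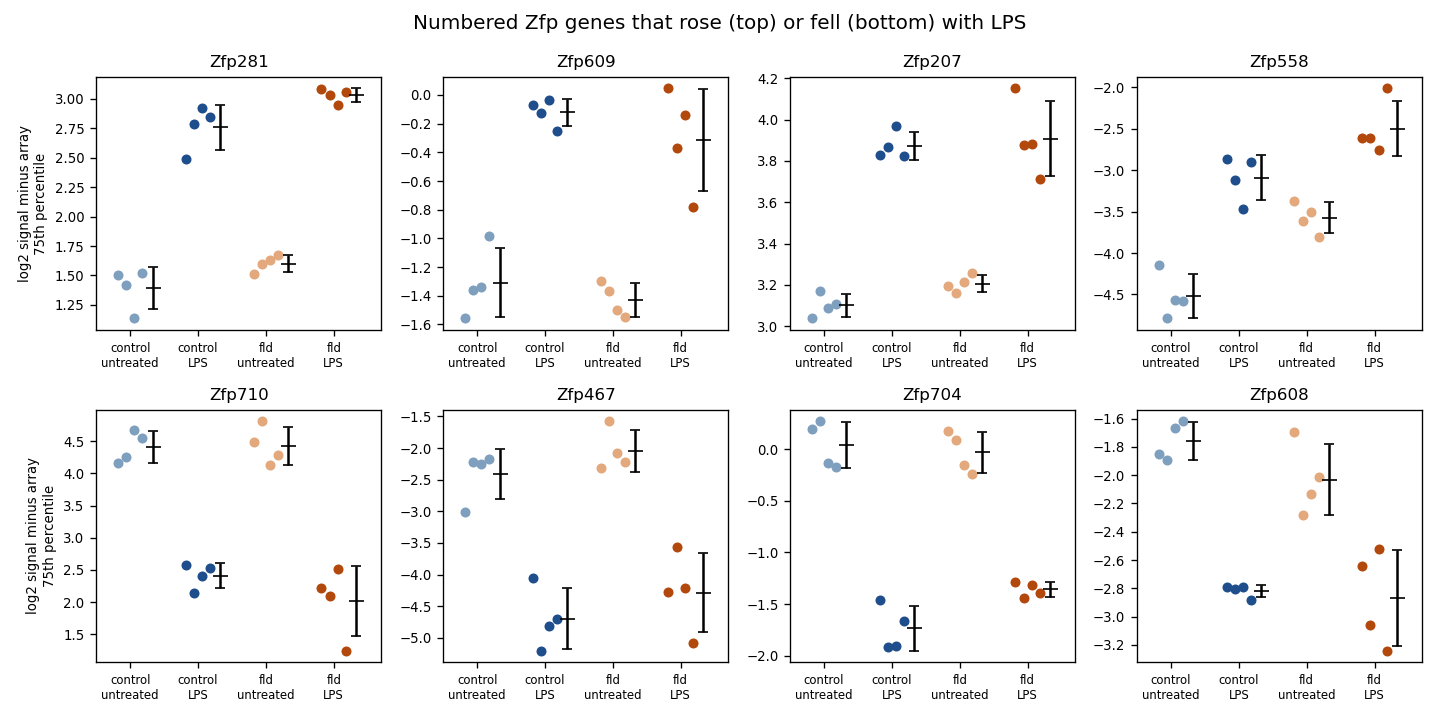
Log2 signal minus the array's 75th percentile on each of the 16 arrays for 4 genes that rose (top row) and 4 that fell (bottom row) with LPS. Points are arrays and bars are the mean and SD of 4 arrays; vertical scales differ between panels. LPS arrays of Zfp281 lie at 2.49 to 3.08 and untreated ones at 1.14 to 1.68.

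Other rises in controls were smaller. Zfp369, which with Zfp110 encodes an interactor of the p75 neurotrophin receptor, rose by 0.62 in controls (limma adjusted p = 0.000169) and 0.43 in fld cells (adjusted p = 0.00517), though 2 other Zfp369 probes were not called. Zfp535, now Zkscan6, rose by 0.59 and 0.51. Zfp397 rose by 0.53 and 0.45. Zfp715 rose by 0.54 in controls and differed by 0.16 in fld cells (adjusted p = 0.276), where 2 of its other probes rose by 0.75 and 0.64. Zfp407 rose by 0.53 in controls and differed by 0.18 in fld cells (adjusted p = 0.342), and the difference between these responses was not called. In the deposited value table the fld rises of Zfp369 and Zfp397 were 0.124 and 0.211 and were not called (adjusted p = 0.561 and 0.335), nor was that of Zfp535 (0.263, adjusted p = 0.151). In fld cells Zfp13, Zfp52 and Zfp142 rose by 0.63, 0.66 and 0.59, and in the value table Zfp52 (0.418, adjusted p = 0.0563) and Zfp142 (0.345, adjusted p = 0.0638) were not called.

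By the brightest probe of each gene, Zfp710 and Zfp467 fell furthest in both genotypes. Zfp710 (chromosome 7, 75960229 to 75960288) read 4.16, 4.26, 4.68 and 4.55 on untreated control arrays and 2.57, 2.14, 2.41 and 2.53 with LPS. In fld cells it went from 4.5, 4.81, 4.13 and 4.29 to 2.21, 2.10, 2.52 and 1.24. It fell by 2.00 in controls (SE 0.23, limma adjusted p = 1.56e-05) and by 2.41 in fld cells (5.33-fold, adjusted p = 2.70e-06). No LPS array reached any untreated array. Both calls held under every alternative. Its second probe fell by 2.06 and 2.42, but that probe was below background on some array.

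Zfp467, a factor that favours adipocyte over osteoblast differentiation, was dim after LPS. It read -3.01, -2.22, -2.26 and -2.17 on untreated control arrays and -4.05, -5.20, -4.82 and -4.70 with LPS, with 3 of 4 LPS arrays above background. It fell by 2.28 (4.86-fold, SE 0.30). In fld cells it went from -2.31, -1.57, -2.08 and -2.23 to -4.28, -3.57, -4.21 and -5.08, a fall of 4.72-fold, again with 3 of 4 LPS arrays above background. The groups did not overlap in either genotype, and both folds take in an array below background. The probe became a member only through the untreated groups where it was bright. A lower value with LPS was therefore favoured by the choice, and no p-value is given.

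Zfp704 fell in both genotypes, with every LPS array below every untreated one, and its second, dimmer probe fell further. On control arrays it read 0.19, 0.28, -0.13 and -0.17 untreated and -1.47, -1.92, -1.91 and -1.66 with LPS, and it fell by 1.78 (SE 0.14, limma adjusted p = 3.60e-07). On fld arrays it went from 0.18, 0.09, -0.15 and -0.24 to -1.28, -1.44, -1.32 and -1.39, and it fell by 1.33 (adjusted p = 5.38e-06). The second probe fell by 2.37 and 2.2, but it was below background on some array, and such dim probes entered through the group where they were bright.

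Zfp503, a NET-family repressor, fell by 1.17 in controls (limma adjusted p = 0.0251) and 1.67 in fld cells (adjusted p = 0.00259), but the control call was lost without control LPS replicate 2 (adjusted p = 0.0566), control LPS replicate 4 (0.0653) or untreated control replicate 3 (0.0845). Zfp90, a KRAB protein, fell by 0.86 and 0.97 (adjusted p = 7.63e-05 and 2.43e-05), with untreated control arrays at 0.60 to 0.74 and LPS arrays at -0.29 to -0.10. Zfp161, now Zbtb14, fell by 0.65 and 1.02. Zfp99, now Zkscan14, fell by 0.84 and 0.91. Zfp30, a KRAB gene linked by mouse mapping to neutrophil recruitment in the airways, fell by 1.05 in controls (adjusted p = 0.00181), and in fld cells it fell by 1.0, with overlapping groups and with -0.099 under normexp (adjusted p = 0.503). Zfp93 passed the background test on no control LPS array and was at least 2.01-fold lower there, but under normexp the difference was -0.142 (adjusted p = 0.569). It became a member only through other groups where it was bright, so a lower value in LPS-treated controls was built into the choice. Zfp667 fell by 0.80 in controls and differed by -0.20 in fld cells, and under normexp the control difference was -0.285 (adjusted p = 0.199). In fld cells Zfp606 and Zfp278, now Patz1, fell by 0.81 and 0.80, but under normexp they were 0.028 and 0.041 and neither was called.

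A list of 26 numbered Zfp genes with a known role outside KRAB repression had 24 detected. In controls 4 were higher (Zfp110, Zfp143, Zfp207, Zfp281) and 5 lower (Zfp90, Zfp91, Zfp217, Zfp219, Zfp467). In fld cells 5 were higher and 4 lower, and the list medians were -0.02 and 0.01. Of all gene names 14.5% were higher and 15% lower in controls, and 21.5% and 17.9% in fld cells. Zfp143, an activator of small nuclear RNA promoters, rose by 0.45 in controls (limma adjusted p = 0.00545) and 0.50 in fld cells (adjusted p = 0.0024), where the value table gave 0.259 (adjusted p = 0.146). Zfp110 rose by 0.31 in fld cells, a call lost without both fld arrays of replicate 4 (0.228, adjusted p = 0.113), without untreated fld replicate 2 (0.0644) or 4 (0.0686), under normexp (0.0502) and in the value table (0.064, adjusted p = 0.728). Zfp91, a ubiquitin ligase of the noncanonical NF-kB pathway, fell by 0.52 and 0.59 (adjusted p = 0.00371 and 0.00147). Zfp219 fell by 0.60 and 0.32, and the fld call was lost without LPS-treated fld replicate 1 (adjusted p = 0.075) or untreated fld replicate 2 (0.0588) or 3 (0.0657). It was higher by 0.35 in LPS-treated fld cells than in LPS-treated controls (adjusted p = 0.037). That call was lost in 10 alternatives, among them the fit without both fld arrays of replicate 4 (0.308, adjusted p = 0.124). The call of Zfp217 in controls, a fall of 0.40, was lost under 4 processing alternatives and without LPS-treated control replicate 1 (adjusted p = 0.0568) or untreated control replicate 1 (0.0581) or 4 (0.0689). Zfp451, a SUMO ligase, rose by 0.35 in fld cells and by 0.106 in the deposited value table (adjusted p = 0.552). Of 7 genes known for imprinting or retroelement silencing only Zfp445 was detected, and it rose by 0.29 in fld cells (adjusted p = 0.0248). That call was lost without LPS-treated fld replicate 1 (adjusted p = 0.0591) or 2 (0.0508), without untreated fld replicate 2 (0.0664), under normexp (0.0522) and in the value table (0.043, adjusted p = 0.823).

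Probes of 1 gene did not always move together. Of 95 genes with several member probes, 15 had every probe called in 1 direction for LPS in controls, 29 had some called and 50 none. The same was not counted for all genes with several probes, so whether this is particular to the members was not tested. The 1 other gene was Zfp7, with 2 probes that rose by 0.46 and 0.64 and 1 that fell by 0.84. In fld cells Zfp512 had 1 probe falling by 0.54 and 1 rising by 0.70, and Zfp74 had 1 rising by 1.06 and 1 falling by 0.58. These 3 genes were the only ones of the 95 with opposite calls in the LPS comparisons, and no gene had them in the genotype comparisons.

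The silencing partners of KRAB proteins were called in both directions. Of 42 genes listed, 41 were measured; in controls and in fld cells alike 3 were higher and 8 lower, beside 14.5% and 15% of all gene names in controls and 21.5% and 17.9% in fld cells, with medians of -0.15 and -0.07 against 0.03 and 0.06 for all gene names. Trim28 differed by 0.02 and 0.09 and Setdb1 by -0.15 and -0.09, none of them called. Ehmt2, the G9a histone methyltransferase, fell by 0.79 and 0.87 (limma adjusted p = 0.000587 and 0.000256), Suv420h2 by 1.02 and 0.60, and Chd3 of the NuRD complex by 0.82 and 0.53. Pphln1 of the HUSH complex rose by 0.71 and 0.65 (adjusted p = 0.000859 and 0.00148). The fld rise of Pphln1 was 0.409 in the value table (adjusted p = 0.0523). Cbx5, the alpha form of HP1, was higher by 0.67 in LPS-treated fld cells than in LPS-treated controls (adjusted p = 0.00198), but by 0.27 in the value table (adjusted p = 0.0741). The partner counts were also taken under other scalings, a check added after seeing the data. In controls 2 were higher and 7 lower under normexp (12.4% and 10.8% of all probes), 3 and 9 under quantile normalization (14.1% and 14.3%) and 1 and 4 in the value table (11.4% and 12.4%). In fld cells the counts were 3 and 12 (33.9% and 13.8%), 2 and 8 (18.5% and 21.3%), and 0 and 15 (10.4% and 26.0%). Leaving out both fld arrays of replicate 4 gave 2 higher and 7 lower partners in fld cells (15.955% and 13.899% of all probes).

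Chromosome 7 held 53 of the member genes, and this comparison was chosen after the values were seen. In controls 3 of the 53 were higher and 12 lower, and elsewhere 30 of 155 were higher and 23 lower. Other genes on chromosome 7 had 12.9% higher and 13.3% lower. The 12 lower became 6 under normexp, 11 under quantile normalization and 7 in the value table. In fld cells the 53 had 5 higher and 14 lower, members elsewhere had 30 and 31 of 155, and other genes on chromosome 7 had 24.6% and 16.5%. Under normexp the 53 had 14 higher and 3 lower in fld cells. There were 39 pairs of member genes with no other protein-coding gene starting between them in the GRCm38.p6 annotation. In controls both genes were called in the same direction in 2 pairs and in opposite directions in 1, and in fld cells in 6 and 1. Of all 208 member genes 32.7% were called in controls and 38.5% in fld cells. Whether neighbours moved together was not tested.

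Between genotypes few members differed. Untreated fld cells had 3 of 348 probes higher and 2 lower than controls, against 3.44% and 0.196% of all probes tested, and LPS-treated fld cells had 21 higher and 3 lower, against 13.1% and 0.799%. By gene these were 3 and 1 of 208 untreated, against 4.28% and 0.17% of all gene names, and 12 and 1 with LPS, against 15.5% and 0.74%. The direction in LPS-treated cells depended on scaling: 8 probes were higher and 27 lower under quantile normalization (8.39% and 5.02% of all probes), and 7 and 156 in the deposited value table (9.21% and 37.5%), which moved the median of all probes from 0.01 to -0.385. The value table moved the median for untreated cells from 0.04 to -0.139. Without both fld arrays of replicate 4, 12 probes were higher and 0 lower in LPS-treated cells, against 9.92% and 0.435% of all probes. In untreated cells that fit had 3 higher and 2 lower, against 4.245% and 0.305%. Of 4 member genes called untreated, 3 were also called with LPS, namely Zfp558, Zfp533 and Zfp689. Over 17598 gene names, 655 of 784 called untreated were also called with LPS (83.5%), so such overlap was common among all genes. Whether the members differed from all gene names in this was not tested.

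Zfp533, now Zfp385b, was higher in fld cells, most so with LPS. It read -4.85, -4.80, -5.03 and -5.60 in untreated controls and -4.03, -4.13, -4.54 and -4.04 in untreated fld cells. With LPS it read -4.45, -4.67, -5.24 and -4.58 in controls and -3.15, -3.34, -3.22 and -2.94 in fld cells. The groups did not overlap, and the difference with LPS was 1.57 (2.97-fold, SE 0.20, limma adjusted p = 0.000174). It was called under every alternative that tested this probe, which was below background on some array. On untreated control replicate 4 its -5.60 lay under the lowest signal that passed there, -5.02. Such dim probes entered through the group where they were bright, so these differences take in values near or below background. Untreated the difference was 0.89 (adjusted p = 0.0223), and the call was lost without untreated control replicate 3 or 4 or untreated fld replicate 1, 2 or 4 (adjusted p = 0.0533 to 0.0836), under normexp (0.231, adjusted p = 0.673) and under quantile normalization (0.578, adjusted p = 0.0878). Its second probe differed by 0.79 with LPS and was called (adjusted p = 0.043). Within fld cells LPS raised Zfp533 by 1.02 (adjusted p = 0.00109).

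Zfp689 read -2.90, -3.04, -3.30 and -3.00 in untreated controls and -1.95, -2.40, -2.26 and -2.13 in untreated fld cells. With LPS it read -2.46, -2.48, -3.44 and -2.53 against -1.51, -1.60, -1.74 and -0.81. The difference with LPS was 1.31 (SE 0.23, limma adjusted p = 0.00125), and untreated it was 0.88 (adjusted p = 0.0437), a call kept in 4 of 16 fits that each left out 1 array and lost under normexp (0.505, adjusted p = 0.31). Within fld cells LPS raised Zfp689 by 0.77, and that call was lost without both fld arrays of replicate 4 (0.584, adjusted p = 0.0692). A second Zfp689 probe differed by -0.27 with LPS and by 0.03 untreated, without a call. The fld arrays of Zfp689 lay above the controls in each treatment.

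Zfp558 was higher in fld cells by its brighter probe, by 0.95 untreated (limma adjusted p = 0.0119) and 0.59 with LPS (adjusted p = 0.0431), while its second probe differed by -0.05 and -0.37 and was not called. The LPS difference lost its call without fld LPS replicate 4 (0.428, adjusted p = 0.142) or control LPS replicate 3 (0.465, adjusted p = 0.157), and kept it in 6 of 16 such fits. It was also lost without both fld arrays of replicate 4 (0.428, adjusted p = 0.138), under quantile normalization (0.251, adjusted p = 0.282) and in the value table (0.19, adjusted p = 0.289). The untreated call was lost under normexp (0.358, adjusted p = 0.432) and without untreated fld replicate 1 (adjusted p = 0.0509).

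Other genes were called in 1 genotype comparison. Zfp694, now Zkscan2, differed by 1.17 with LPS (limma adjusted p = 0.00808) and by 0.653 under quantile normalization (adjusted p = 0.132), and it was called in all 16 fits that left out 1 array. Zfp618, whose protein binds UHRF2, read -3.47, -3.13, -3.62 and -3.46 in LPS-treated controls and -2.68, -2.57, -2.72 and -1.49 in LPS-treated fld cells, a difference of 1.05 (adjusted p = 0.00778). That call was kept in all 16 fits that left out 1 array, with differences of 0.762 to 1.17. Zfp13 was higher by 0.66 in LPS-treated fld cells (adjusted p = 0.0107), but by 0.26 in the value table (adjusted p = 0.107). Zfp114 differed by 1.03 and Zfp449 by 0.77 with LPS, and both lost the call without the pair of fld replicate 4 arrays (0.82, adjusted p = 0.0553, and 0.654, adjusted p = 0.0513). Under quantile normalization Zfp449 differed by 0.322 (adjusted p = 0.255). Taking the brightest probe of each gene, Zfp661 alone was lower in LPS-treated fld cells, by 0.58 (adjusted p = 0.0399), while 1 dimmer probe each of Zfp386 (-0.694) and Zfp560 (-0.653) was also called lower. The Zfp661 call was kept in 8 of 16 fits that left out 1 array. Without control LPS replicate 2 the difference was -0.349 (adjusted p = 0.0629), and without fld LPS replicate 4 it was -0.526 (adjusted p = 0.108). With both fld arrays of replicate 4 left out it was -0.526 (adjusted p = 0.124). Zfp692 was lower by 0.54 in untreated fld cells (adjusted p = 0.0389), and the call was kept in 7 of 16 such fits, with -0.459 (adjusted p = 0.109) without untreated control replicate 4.

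**Figure D4:**
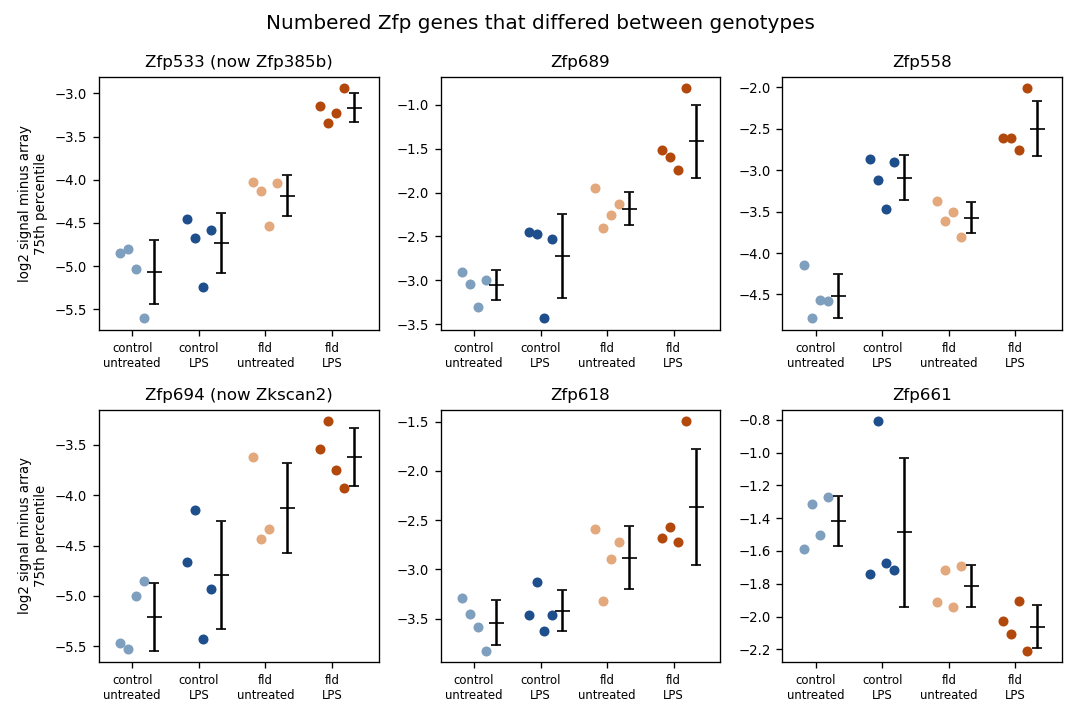
Log2 signal minus the array's 75th percentile on each array for 6 genes called between genotypes, with the mean and SD of each group of 4 arrays (3 for untreated fld Zfp694). In Zfp533 and Zfp689 the LPS-treated fld arrays lie above every LPS-treated control array.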

How the data were processed

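Total RNA of 16 samples was amplified and labelled with Cy3 for 1-colour Agilent arrays, per the labels' protocols. Spots were read with Feature Extraction 9.5.1.1, per the file headers, and the processed signal is the scanner software's background-corrected intensity as deposited. The deposited value table is a ratio: each array's processed signal divided by its median, found by setting it against the scanner values. Control spots, and 1.34% of spot values with an outlier flag, were left out, and repeated spots of a probe were averaged. Each array's 75th percentile was subtracted on the log2 scale. The fit took every probe that passed the background test throughout 1 group or more.

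limma 3.58.1 in R 4.3.3 fitted 1 mean per group over all 16 arrays, with two-sided tests and Benjamini-Hochberg adjustment over all probes in each comparison, and the fit was tested on simulated data. The brightest probe stands for a gene. Genes are named by a rule: per LPS comparison up to 10 highest and 10 lowest, per genotype comparison up to 6, among called genes whose groups do not overlap, plus the listed genes. Names were updated through a RefSeq table (GRCm38.p6): 169 by accession, 30 by symbol, 8 by synonym and 1 unmatched. Protein sequences were not used here. The alternatives were normexp (offset 50), quantile normalization, the deposited value table, 2 detection filters, 1 probe per gene, outlier spots kept, the replicate block and leaving out arrays. Precision is limited by the number of arrays. The members and lists were chosen with earlier results of these data known.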

Additional observations from a re-analysis of the deposited data

Results flagged for a closer look

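Of 130 groups of 4 arrays checked among the named genes, 5 held 1 array far from the other three, a share that chance gives in about 1 in 20 groups. Zfp467 read -3.01 on untreated control replicate 1 and -2.26 to -2.17 on the others. Zfp618 read -1.49 on LPS-treated fld replicate 4 and -2.72 to -2.57 on the others. Zfp661 read -0.81 on LPS-treated control replicate 2 and -1.74 to -1.68 on the others. Zfp689 read -3.44 on LPS-treated control replicate 3 and -2.53 to -2.46 on the others. Zfp715 read -1.40 on untreated control replicate 1 and -1.09 to -1.04 on the others.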

How the results depend on the processing

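Of 77 calls of the named genes, 40 were kept under every alternative that tested their probe and 61 in all 16 fits that left out 1 array. The filter to probes above background on all 16 arrays tested 63 of the 77. The calls that changed direction were Zfp219 in LPS-treated fld against control cells (-0.048 in the value table) and, for LPS in fld cells under normexp, Zfp278 (0.041), Zfp606 (0.028) and Zfp93 (0.275). Counts of member probes moved as follows. For LPS in controls, higher calls were 29 in the value table and lower calls 25 under normexp and 35 with 1 probe per gene. For LPS in fld cells, higher calls were 108 under normexp and 16 in the value table, and lower calls 28 and 101. For untreated genotypes, higher calls were 0 under normexp, 1 under quantile normalization and 1 with probes on all 16 arrays; lower calls were 1 with 1 probe per gene, 0 without a filter, 0 under normexp and 1 with probes on all 16 arrays. For LPS-treated genotypes, higher calls were 12 with 1 probe per gene, 8 under quantile normalization, 7 in the value table and 12 without both fld replicate 4 arrays; lower calls were 1 with 1 probe per gene, 1 under normexp, 1 with probes on all 16 arrays, 27 under quantile normalization, 156 in the value table and 0 without both fld replicate 4 arrays. With 1 probe per gene the counts are out of 208 and not 348: the lower share for LPS in controls was 16.8% against 17.0%, and the higher share for LPS-treated genotypes 5.77% against 6.03%. For the other settings the cause was not tested.

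Leaving out 1 array gave 38 to 53 higher and 46 to 65 lower calls for LPS in controls, 43 to 55 and 43 to 72 in fld cells, 0 to 7 and 0 to 2 for untreated genotypes, and 12 to 20 and 0 to 5 for LPS-treated genotypes. Same-numbered arrays did not deviate together in every pair (correlations of -0.157 to 0.319), so the numbers were not taken as pairs. The replicate block gave 50 higher and 60 lower calls for LPS in controls, 57 and 70 in fld cells, 5 and 1 for untreated genotypes and 21 and 3 for LPS-treated ones, and it ended 1 named call. Dim probes bound the smallest changes: 64 of 348 member probes were below background on some array.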
